A study of Mus musculus with 24 samples.

Results

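The 51 genes described here encode the transport machinery and gate of the primary cilium, and they were taken by symbol from a table of read counts for 54532 genes in kidneys of Pkd1 mutant mice. They were chosen by function, although earlier results of these data were known at the time. By role, 12 genes encode the intraflagellar transport complex B (IFT-B), 6 complex A (IFT-A), 3 motors and 11 the BBSome and its chaperonins. A further 16 belong to the transition zone, and 3 to the ciliary membrane and the inversin compartment. All 51 passed the limit on low expression that left 22570 genes for testing. RNA-seq was performed on whole kidneys of 24 mice at 18 days of age, of the strain C57BL/6 per the labels and C57BL/6 J per the study's methods.

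All mice carried on 1 Pkd1 allele the RC change, a missense mutation that lowers the amount of mature polycystin-1, and a floxed second allele. In the 3 RC/+ mice, labelled control, the floxed allele was intact, and in the 5 RC/- mice, labelled cystic, it was removed by Ksp-Cre, a recombinase under a promoter active in kidney tubule epithelium. Cre was present in RC/- mice and absent from RC/+ mice, so its presence and the cystic genotype cannot be told apart. In the D18 line (founder 3) and the D53 line (founder 2), genome editing had removed the miR-17 site from the 3′ UTR of the RC allele. The edited groups were RC/+ D18 and RC/+ D53, labelled control, with 3 mice each, and RC/- D18 and RC/- D53, labelled cystic, with 5 mice each. The study reports that cystic disease was almost wholly relieved in edited RC/- mice. For these groups, cystic below is the word of the label and not the state of the kidney. Each edited line descends from 1 founder, so its groups describe that founder's progeny. Matings of the edited founders also give unedited mice, by the study's account, and the labels do not name the founder of the unedited RC/+ and RC/- mice.

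The primary cilium is a single, non-motile projection of most kidney tubule cells, on which the polycystins reside. IFT-B with kinesin-2 carries cargo towards the tip, IFT-A with dynein-2 carries it back, the BBSome is an adaptor for the exit of membrane proteins, and the transition zone at the base controls which proteins enter. Mutations in these genes cause ciliopathies such as nephronophthisis, Joubert, Meckel and Bardet-Biedl syndromes, many of which include cystic kidneys.

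Total counts ranged from 20.4 to 30.8 M per library, of which the 51 genes together took 26465 to 38809 counts. Mitochondrial genes took 3.67% ± 0.320 of the counts in RC/- and group means of 5.42% to 6.18% elsewhere. Libraries 20 to 27, which are 3 of the 5 RC/- D18 and all 5 RC/- D53 libraries, held 147 to 194 CPM (the count scaled to the total count of its library) of a list of 6 skeletal muscle genes, against 5.27 to 9.36 CPM in the other 16. Results on those groups are therefore also given with these libraries left out or set as a covariate. Total Pkd1 was 38.4 to 71.4 CPM, a value that sums both alleles and so checks no genotype label.

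The promoters of many ciliary genes carry the X-box, the binding motif of RFX transcription factors. In the RefSeq promoter windows of the GRCm38.p6 build, which run from 250 bases before to 50 after a gene start, 47 of the 51 genes had an entry and Ift80, Ift81, Ift122 and Tmem67 had none. The letters GTNNCC and GGNAAC, 2 bases apart and read on either strand, were found in 13 of these 47 windows (27.7%), against 403 of 27025 genes (1.49%). The half-site GTTGCC, which the paired motif can contain, was found in 23 of 47 (48.9%) against 14.1% of all genes. The form of the paired motif was settled on after other forms had been tried on these promoters, so the shares are a description. The windows that lie upstream of the RefSeq start and outside annotated exons are shown for 6 genes, 3 that changed in RC/- kidneys (Bbs7, Ift22 and Nphp4) and 3 whose test was not passed there (Ift57, Mks1 and Tctn2), with the motif in capitals.
Bbs7 (chr3:36613489-36613518, minus strand): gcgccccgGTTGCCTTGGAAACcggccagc
Ift22 (chr5:136908079-136908108, plus strand): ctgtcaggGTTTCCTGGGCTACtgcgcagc
Ift22 (chr5:136908109-136908138, plus strand): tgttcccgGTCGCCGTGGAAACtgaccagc
Nphp4 (chr4:152477903-152477932, plus strand): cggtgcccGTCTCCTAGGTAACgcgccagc
Ift57 (chr16:49699199-49699228, plus strand): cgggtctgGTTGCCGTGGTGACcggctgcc
Mks1 (chr11:87853183-87853212, plus strand): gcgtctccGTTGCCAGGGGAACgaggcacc
Tctn2 (chr5:124598679-124598708, plus strand): gattggagGTTACCATGGCTACtggtcctc
The Bbs7 motif began 121 bases before the start, the Ift22 motifs 63 and 33, the Ift57 motif 87, the Mks1 motif 24, and the Tctn2 motif 62. The Nphp4 motif began 231 bases before the RefSeq start, which places it in an intron of a longer GENCODE model of Nphp4. The other 7 windows, those of Ahi1, Bbs1, Bbs4, Tctn1, Tmem216, Tmem231 and Tmem237, overlapped annotated exons of their own gene.

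In RC/+ kidneys the 51 genes had moderate transcript levels, with a median of 4.29 RPKM (CPM per kilobase of exon) against 2.00 RPKM for the 22561 tested genes with a known length. Ift20, a subunit of IFT-B that also works at the Golgi, was highest at 45.9 ± 1.11 RPKM (SD, n = 3 here and for the RPKM values that follow). The IFT-B subunit Ift52 followed at 17.1 ± 0.662 RPKM, the IFT-A subunit Ift43 at 13.7 ± 0.821 RPKM, and Arl6, the small GTPase that recruits the BBSome to membranes, at 12.9 ± 1.18 RPKM. The motor subunits of kinesin-2 stood at 8.77 ± 0.561 RPKM for Kif3b and 7.54 ± 0.469 RPKM for Kif3a, well above Dync2h1, the heavy chain of dynein-2, at 1.74 ± 0.0447 RPKM.
The lowest levels per kilobase were those of large scaffolds of the transition zone, with Rpgrip1l at 1.02 ± 0.0688, Cep290 at 0.944 ± 0.0189 and Nphp4 at 0.747 ± 0.173 RPKM. These values depend on the summed length of all annotated exons, which is 14688 bases for Rpgrip1l. In CPM, Rpgrip1l at 14.9 was above Bbs10 at 6.01 and Bbs12 at 5.92, while Nphp4 was still lowest at 4.51. Most of the order by RPKM is not resolved, since 42 of the 50 pairs of neighbours in it had overlapping ranges over the 3 RC/+ mice. The 8 gaps lay after Ift20, Ift52, Inpp5e, Ttc8, Mks1, Bbs10, Dync2h1 and Tmem67.

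**Figure D1:**
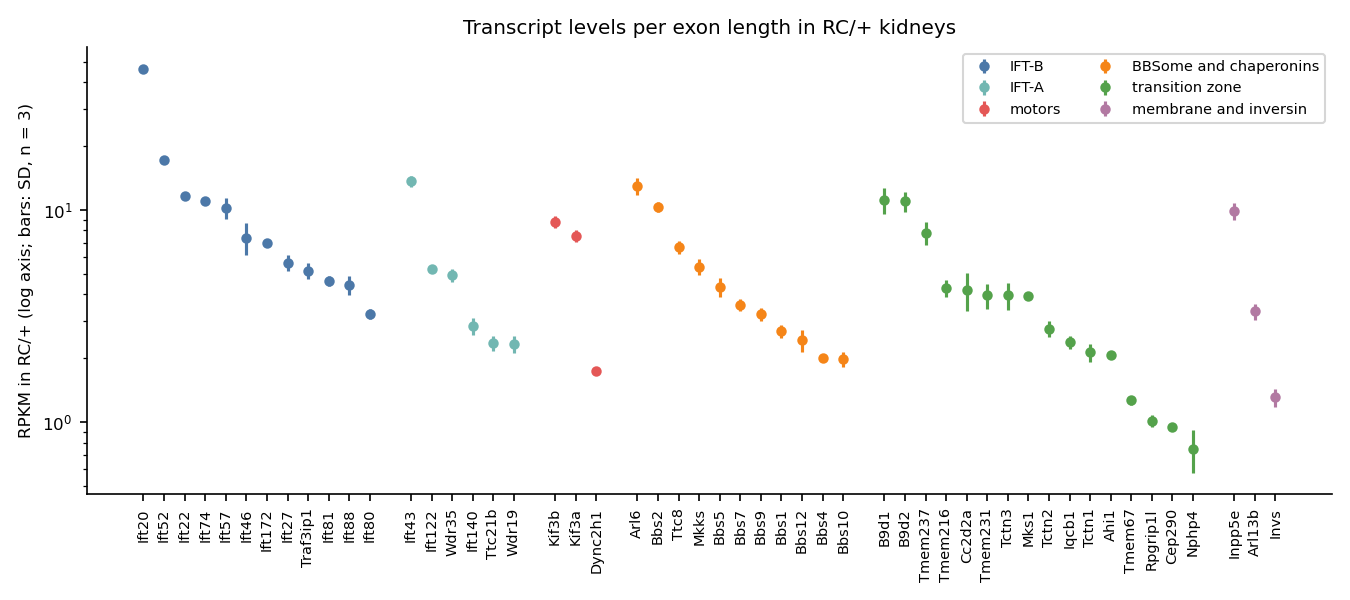
Level of each of the 51 genes in RC/+ kidneys, in RPKM on a log axis, grouped by role and ordered within it. Points are means and bars SD over 3 mice, with Ift20 at 45.9 RPKM on top and Nphp4 at 0.747 RPKM at the bottom.

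The first comparison asked how ciliary gene expression differs between cystic RC/- and noncystic RC/+ kidneys. On total counts, 14 of the 51 genes changed (27.5%), 12 of them higher and 2 lower, at an adjusted p below 0.05 by limma-trend with Benjamini-Hochberg adjustment over all genes tested. Of all genes tested 37.6% changed, 25.5% higher and 12.2% lower, and among the 8767 genes within the same range of mean expression the share was 48.7%. The share of ciliary genes was thus below both backgrounds. The count rested in part on single RC/+ libraries, being 6 without library 5 (background 31.2%) and 9 without library 6 (31.8%). The values of RC/- and RC/+ libraries did not overlap for 13 of the 51 genes (11 higher, 2 lower), as for 37.6% of all genes.
The changes were also small. The log2 fold changes of the 51 genes ran from -0.49 to 0.71 with an SD of 0.21, against an SD of 0.69 over all genes and 0.57 over the genes of like expression. None of the 51 reached a log2 fold change of 1 in either direction, which 3011 of all tested genes did, including 801 (9.14%) of those of like expression.

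The scale of these values matters for their direction. The median of all genes stood at 0.14 log2 in RC/- against RC/+ on total counts, and the median of the 51 genes at 0.13. With TMM factors, which align libraries on the bulk of genes, the medians were 0.01 and -0.01, and 9 of the 51 changed, 5 higher and 4 lower. The background with TMM was 34.3% of genes, 17% higher and 17.3% lower. The mean log2 CPM of the 51 genes was 0.14 ± 0.059 above that of RC/+ in RC/- libraries on total counts (SD, n = 5), and 0.0012 ± 0.045 above it with TMM factors.
A set of 7 genes passed the test in the same direction on both scales, namely Ift43, Kif3a, Nphp4, Tmem237 and B9d1 higher and Bbs7 and Inpp5e lower. The 7 further genes that were higher on total counts, Ift22, Ift27, Ift81, Ift140, Tmem231, Ahi1 and Arl13b, did not pass with TMM, and Bbs2 and Mkks were lower with TMM only. In whole kidneys, a change in the number of cells of a type cannot be told apart from a change in RNA per cell.

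**Figure D2:**
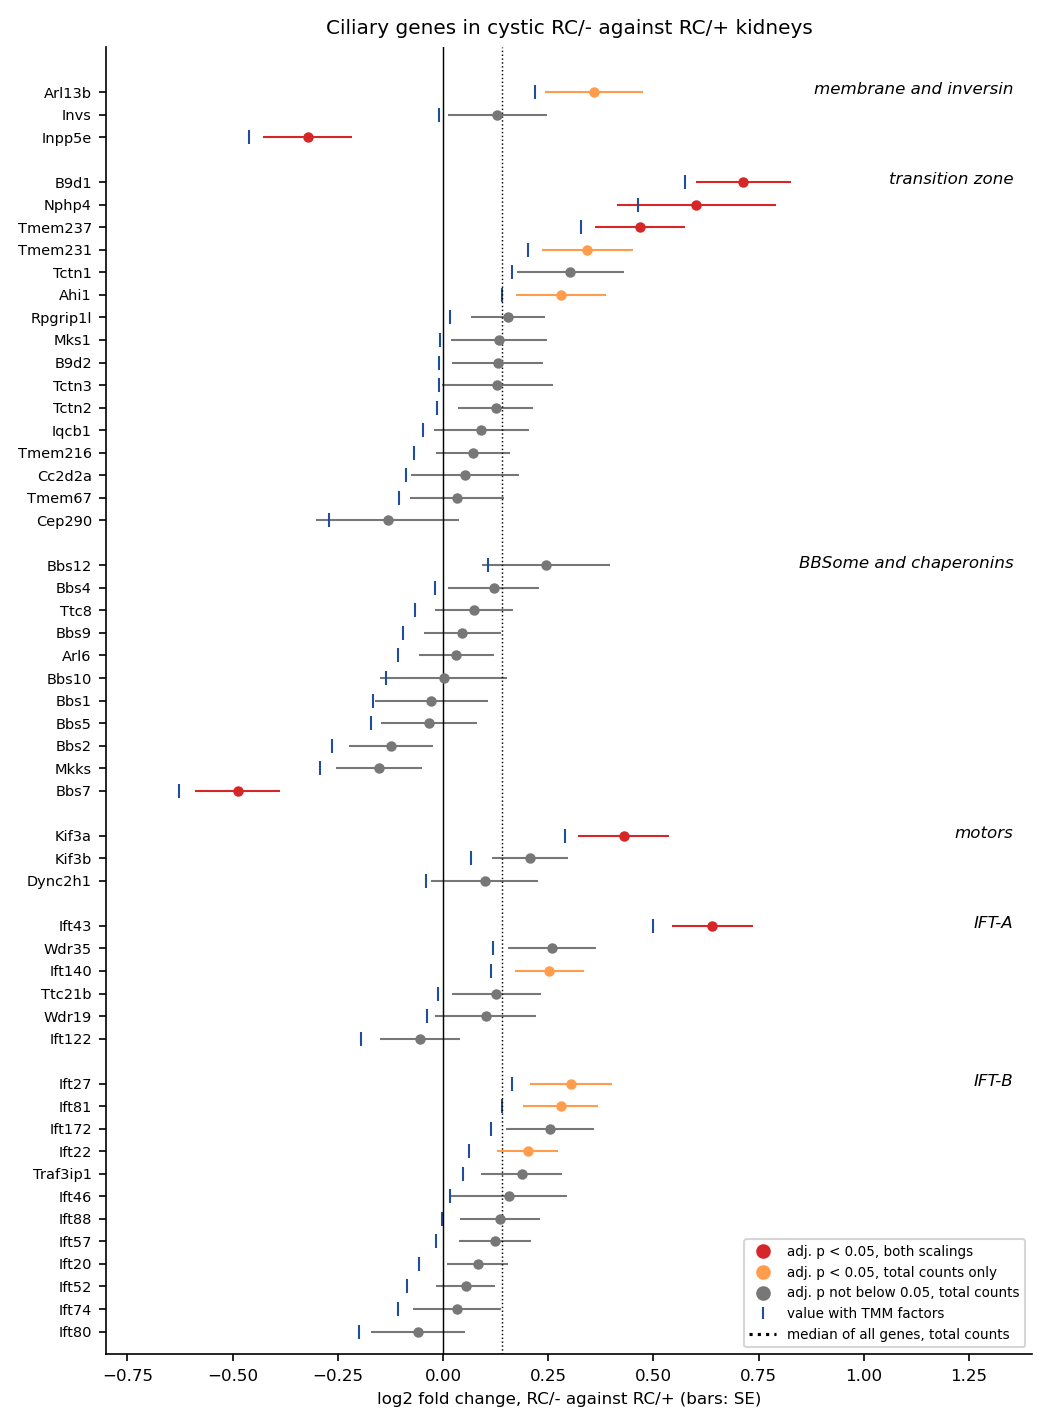
Log2 fold change of each of the 51 genes in RC/- (n = 5) against RC/+ (n = 3) kidneys, grouped by role; points are values on total counts with bars of 1 SE, colour marks the test, and ticks are values with TMM factors. Red points mark the 7 genes that passed on both scales, and most others lie near the dotted median of all genes at 0.14.

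**Figure D3:**
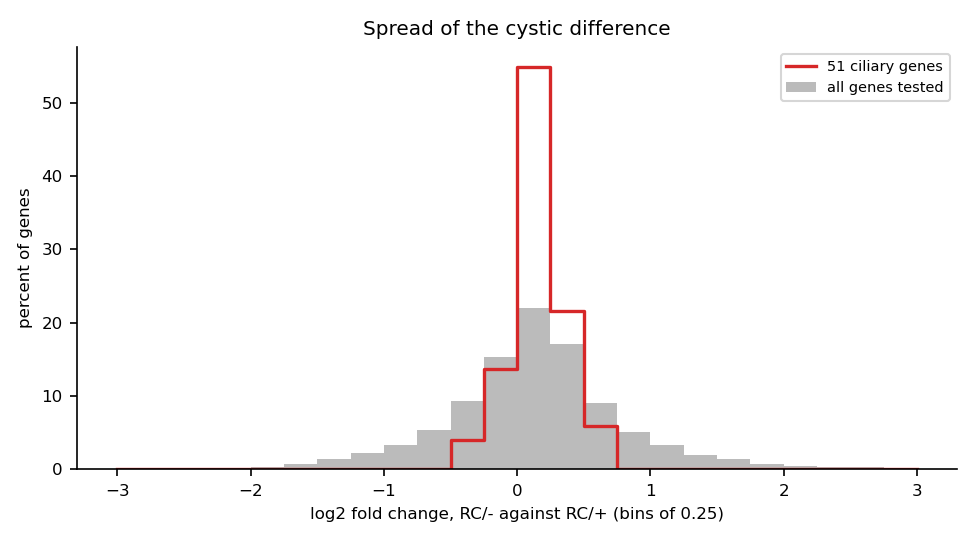
Distribution of the log2 fold change in RC/- against RC/+ kidneys in bins of 0.25, as percent of all 22570 tested genes (grey bars) and of the 51 ciliary genes (red line). The ciliary genes stay between -0.49 and 0.71 while all genes spread beyond 1 on both sides.

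For the counts by role that follow, the background was 25.5% of all genes higher and 12.2% lower on total counts, and 17% and 17.3% with TMM. Among the 12 IFT-B genes, 3 were higher on total counts, none was lower, and none passed with TMM. Their median log2 fold change was 0.15 on total counts and 0.0066 with TMM, close to the medians of all genes on the same scales. Ift81, whose product binds tubulin together with that of Ift74, had 28.7, 25.8 and 26.5 CPM in the RC/+ and 31.2, 30.03, 34.6, 33.96 and 34.3 CPM in the RC/- libraries. Every RC/- library was above every RC/+ library, and the log2 fold change was 0.28 ± 0.089 (SE, adjusted p = 0.015) on total counts and 0.14 with TMM (adjusted p = 0.172).
Ift27, a small GTPase that links IFT-B to the BBSome, had 16.01, 14.8 and 17.5 CPM in RC/+ and 19.6, 19.3, 19.9, 20.1 and 20.5 CPM in RC/-, again without overlap. It differed by 0.30 ± 0.098 log2 (adjusted p = 0.0162) on total counts and 0.16 with TMM (adjusted p = 0.153). The call of Ift81 was lost in 6 of 17 alternative settings, among them without RC/+ library 5 or 6, and that of Ift27 in 5, among them without RC/+ library 5. Ift22, another small GTPase of the complex, was the third, at 0.20 ± 0.072 log2 (adjusted p = 0.0303).
Ift74, the tubulin-binding partner of Ift81, had 28.95, 29.5 and 29.7 CPM in RC/+ and 29.3, 28.5, 28.5, 31.6 and 32.6 CPM in RC/-, which overlapped. Its log2 fold change was 0.03 with a 95% interval of -0.19 to 0.25. The remaining 8 genes, Ift20, Ift46, Ift52, Ift57, Ift80, Ift88, Ift172 and Traf3ip1, lay between -0.06 and 0.25 and did not pass on either scale.

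Of the 6 IFT-A genes, 2 were higher on total counts and 1 of them, Ift43, also with TMM. Ift43, a small peripheral subunit of the complex (chr12:86082541-86162459, plus strand), had 23.6, 21.01 and 23.002 CPM in RC/+ and 35.4, 32.8, 35.1, 36.6 and 35.9 CPM in RC/-. The RC/- values stood clear of RC/+ by a wide margin, and the gene was 1.56-fold higher, which is 0.64 ± 0.096 log2 (adjusted p = 9.96e-06) on total counts and 0.50 (adjusted p = 5.63e-05) with TMM.
Ift140, a core subunit, had 23.8, 25.5 and 21.4 CPM in RC/+ and 31.6, 28.7, 25.9, 26.99 and 27.4 CPM in RC/-. The lowest RC/- value was just above the highest RC/+ value, for a difference of 0.25 ± 0.082 log2 (adjusted p = 0.0174) on total counts and 0.11 (adjusted p = 0.271) with TMM. The Ift140 call was lost in 6 of 17 alternatives, among them without RC/+ library 6. Ift122, also of the core, had 53.98, 53.3 and 56.2 CPM in RC/+ and 56.6, 53.7, 53.5, 46.2 and 52.7 CPM in RC/-, overlapping, at -0.05 log2 with a 95% interval of -0.26 to 0.15. Wdr35, Ttc21b and Wdr19 lay between 0.10 and 0.26 log2 and did not pass.

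Of the 3 motor genes, Kif3a was higher on both scales. Kif3a, a motor subunit of kinesin-2 (chr11:53567379-53601967, plus strand), had 25.6, 28.9 and 26.6 CPM in RC/+ and 36.3, 33.8, 34.99, 36.4 and 40.7 CPM in RC/-. The groups did not overlap, and the gene was 1.35-fold higher at 0.43 ± 0.11 log2 (adjusted p = 0.00264), or 0.29 (adjusted p = 0.0171) with TMM.
Its partner in the heterodimer, Kif3b, had 51.5, 45.8 and 50.9 CPM in RC/+ and 54.5, 55.7, 59.3, 51.05 and 65.4 CPM in RC/-. The ranges touched, since 1 RC/- library lay among the RC/+ values, and the difference of 0.21 ± 0.091 log2 did not pass (adjusted p = 0.076). For Dync2h1 the RC/+ libraries held 27.5, 28.8 and 28.8 CPM and the RC/- libraries 33.9, 32.8, 27.7, 24.1 and 34.9 CPM, at 0.10 log2 with a 95% interval of -0.17 to 0.36.

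Of the 11 genes of the BBSome group none was higher on either scale, 1 was lower on total counts, and 3 were lower with TMM, where 10 of the 11 values were negative and the median was -0.14 log2. On total counts the median was 0.0019 log2 and 5 of 11 values were negative. Bbs7, a subunit of the BBSome core (chr3:36573142-36613477, minus strand), had 18.6, 20.6 and 18.3 CPM in RC/+ and 15.2, 11.7, 13.9, 13.2 and 14.5 CPM in RC/-. All 5 RC/- libraries were below all 3 RC/+ libraries, to 0.713 of the RC/+ level, a log2 fold change of -0.49 ± 0.10 (adjusted p = 0.000451) on total counts and -0.63 (adjusted p = 2.09e-05) with TMM.
Bbs2, which sits beside Bbs7 in the complex, had 32.1, 36.01 and 34.6 CPM in RC/+ and 37.03, 35.6, 29.6, 26.2 and 29.7 CPM in RC/-. The groups overlapped, and the value was -0.12 (adjusted p = 0.362) on total counts and -0.26 (adjusted p = 0.0388) with TMM.
Mkks, a chaperonin-like protein that helps assemble the BBSome, had 15.8, 18.7 and 17.9 CPM in RC/+ and 16.6, 16.6, 14.7, 17.4 and 13.4 CPM in RC/-, also overlapping, at -0.15 (adjusted p = 0.265) and, with TMM, -0.29 (adjusted p = 0.0455). Mkks is uncertain because 29.3% of its exon bases are shared with AL731706.1 on the same strand.
The other chaperonin-like genes were less abundant. Bbs12 had 6.74, 5.44 and 5.58 CPM in RC/+ and 7.18, 5.57, 6.87, 7.47 and 8.18 CPM in RC/-, at 0.25 log2 with a 95% interval of -0.07 to 0.57. Bbs10 had 6.21, 5.44 and 6.38 CPM in RC/+ and 4.96, 5.70, 6.12, 6.88 and 6.55 CPM in RC/-, at 0.00 log2 with an interval of -0.31 to 0.32. Both intervals are wide beside the effects described here. The last 6 genes, Bbs1, Bbs4, Bbs5, Bbs9, Ttc8 and Arl6, lay between -0.03 and 0.12 log2 and did not pass on either scale.

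In the transition zone, 5 of 16 genes were higher on total counts and none was lower, and 3 were higher with TMM. Of all genes tested, 25.5% were higher on total counts and 17% with TMM. B9d1, a B9-domain protein of the Meckel syndrome complex (chr11:61505144-61512931, plus strand), had 19.2, 14.8 and 18.9 CPM in RC/+ and 26.9, 26.9, 30.5, 30.6 and 29.1 CPM in RC/-. No values overlapped, and B9d1 had the largest fold change of the 51 genes, 1.64-fold, at 0.71 ± 0.11 log2 (adjusted p = 1.91e-05) on total counts and 0.57 (adjusted p = 7.52e-05) with TMM. B9d2, the partner of B9d1, was at 0.13 log2 with a 95% interval of -0.10 to 0.36.
Tmem237, a membrane protein of the gate that is mutated in Joubert syndrome (chr1:59100590-59120408, minus strand), had 21.2, 17.03 and 17.6 CPM in RC/+ and 25.8, 23.7, 26.3, 25.7 and 26.8 CPM in RC/-. The groups did not overlap, at 0.47 ± 0.11 log2 (adjusted p = 0.00111) and 0.33 with TMM (adjusted p = 0.0107), and 10.5% of its exon bases are shared with G730003C15Rik on the opposite strand.
Nphp4, a nephronophthisis protein of the gate (chr4:152476706-152563183, plus strand), was the least abundant of the 51, with 4.12, 3.72 and 5.70 CPM in RC/+ and 8.08, 6.67, 8.50, 6.09 and 5.13 CPM in RC/-. Of the RC/- libraries 1 lay below the highest RC/+ library, and the value was 0.60 ± 0.19 log2 (adjusted p = 0.0135), or 0.46 with TMM (adjusted p = 0.0485). Its call was lost in 3 of 17 alternative settings, by edgeR and without RC/+ library 4 or 5, and its SE was the largest of the genes that changed.
Tmem231, a membrane protein of the same complex as B9d1, had 23.4, 18.05 and 22.2 CPM in RC/+ and 26.9, 23.7, 27.4, 26.1 and 30.1 CPM in RC/-. Although the groups did not overlap, the value of 0.34 ± 0.11 log2 (adjusted p = 0.0143) fell to 0.20 with TMM (adjusted p = 0.109). The Tmem231 call was lost in 5 of 17 alternatives, among them without RC/+ library 5. Ahi1, a Joubert syndrome scaffold, was at 0.28 ± 0.11 log2 (adjusted p = 0.0401) and 0.14 with TMM.
Tmem67, the Meckel syndrome receptor-like protein, had 9.23, 9.95 and 10.2 CPM in RC/+ and 9.79, 9.84, 10.4, 9.36 and 10.7 CPM in RC/-, which overlapped, at 0.03 log2 with a 95% interval of -0.20 to 0.27. The other 9 genes, Iqcb1, Cep290, Tmem216, Tctn1, Tctn2, Tctn3, Cc2d2a, Mks1 and Rpgrip1l, lay between -0.13 and 0.30 log2 and did not pass, and 25.5% of the exon bases of Tctn1 are shared with Hvcn1 on the opposite strand.

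The 3 genes of the ciliary membrane and inversin compartment went separate ways. Inpp5e, the phosphoinositide phosphatase that sets the lipid make-up of the ciliary membrane (chr2:26396249-26409203, minus strand), had 40.997, 46.7 and 39.5 CPM in RC/+ and 37.9, 36.6, 31.9, 29.5 and 33.9 CPM in RC/-. It was lower without overlap, at -0.32 ± 0.11 log2 (adjusted p = 0.0188) on total counts and -0.46 (adjusted p = 0.00149) with TMM, and 20.3% of its exon bases are shared with Pmpca on the opposite strand. Its call was lost in 2 of 17 alternatives, without RC/+ library 5 (-0.25 log2, adjusted p = 0.123) and without RC/- library 16 (adjusted p = 0.0513).
Arl13b, the small GTPase that brings Inpp5e into the cilium, had 18.5, 16.3 and 15.9 CPM in RC/+ and 21.9, 17.9, 22.2, 21.3 and 25.3 CPM in RC/-. Of the RC/- libraries 1 was within the RC/+ range, and the value was 0.36 ± 0.12 log2 (adjusted p = 0.0164) on total counts and 0.22 (adjusted p = 0.124) with TMM. The Arl13b call was lost in 6 of 17, among them without RC/+ library 5 or 6. Invs, or inversin, which resides in the proximal segment of the cilium, had 13.6, 14.7 and 16.5 CPM in RC/+ and 17.2, 15.4, 16.6, 14.1 and 18.6 CPM in RC/-, overlapping, at 0.13 log2 with a 95% interval of -0.12 to 0.38.

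Of the genes with the paired X-box in their window, 5 of 13 were higher and 1 was lower in RC/- against RC/+ on total counts, with a median of 0.13 log2. Of the 34 with a window but no such motif, 6 were higher and 1 was lower, also with a median of 0.13. Of all genes tested, 25.5% were higher and 12.2% lower. No test of the difference between genes with and without the motif was made.

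Other genes with a link to the cilium were counted from lists chosen for their function, although several, such as the tubulins, are not particular to the cilium. The background for these lists was 25.5% of all genes higher and 12.2% lower on total counts, and 17% and 17.3% with TMM. In a list of 22 further IFT, BBSome and transition zone genes, 4 were higher and 1 was lower on total counts, and 2 were higher and 5 lower with TMM. Tmem138, a transition zone membrane protein, rose from 11.8 ± 0.609 CPM in RC/+ to 16.4 ± 1.02 CPM in RC/- (SD, n = 3 and 5, adjusted p = 0.000434), and Bbip1, a small BBSome subunit, from 24.8 ± 0.544 to 32.5 ± 2.00 CPM (adjusted p = 0.000873). Both passed with TMM as well. Lztfl1, which regulates the BBSome, fell from 27.2 ± 3.41 to 23.2 ± 1.81 CPM (adjusted p = 0.0484 on total counts and 0.00102 with TMM).
Among 16 genes for the basal body and cilium assembly, 5 were higher and none was lower on total counts, and 2 were higher and 2 lower with TMM. Fbf1, of the distal appendages, rose from 45.9 ± 3.39 to 63.2 ± 4.19 CPM (adjusted p = 0.000731). Of 8 genes for cilium disassembly, 2 were higher on both scales, Kif2a with 24.5 ± 0.958 CPM in RC/+ and 35.0 ± 1.83 CPM in RC/-, and Plk4 with 10.5 ± 1.98 and 16.9 ± 1.77 CPM.
Larger changes were found outside the transport machinery. Of 13 genes for tubulins and tubulin modification, 9 were higher and 1 was lower on total counts, and 8 and 1 with TMM. Tubb2b, a beta-tubulin, rose from 45.2 ± 4.57 to 159.9 ± 16.8 CPM (1.82 log2, adjusted p = 2.98e-10), whereas Tuba4a, an alpha-tubulin, fell from 162 ± 17.6 to 107 ± 21.3 CPM (-0.62 log2, adjusted p = 0.000225). Tubb4b, another beta-tubulin, did not pass on total counts (0.19 log2, adjusted p = 0.123) or with TMM (0.05 log2, adjusted p = 0.737).
A list of transcription factors held 11 genes, chosen as RFX family members or for a role in cilium formation. Of these 10 were tested, and 7 were higher on total counts and 4 with TMM, none lower. The 7 include Rfx5, which was taken as an RFX family member only, and Gmnc, which was at most 0.714 CPM. Foxj1, the master regulator of motile cilia, rose from 3.58 ± 1.05 to 12.1 ± 3.07 CPM (1.76 log2, adjusted p = 1.37e-06), and Myb, which acts before it in multiciliated cells, from 0.424 ± 0.239 to 2.09 ± 0.649 CPM (2.19 log2, adjusted p = 1.12e-05). Among 13 Hedgehog pathway genes, whose signalling runs through the cilium, 4 were higher and 1 was lower on total counts, and 3 and 2 with TMM. Gli3, a transcription factor of the pathway, rose from 3.44 ± 0.0123 to 9.12 ± 1.73 CPM (adjusted p = 3.6e-05), and Sufu, its inhibitor, fell from 64.6 ± 7.43 to 50.5 ± 6.90 CPM (adjusted p = 0.0174). Of the 3 polycystic disease genes, Pkhd1, which encodes fibrocystin, rose from 164.6 ± 3.32 to 230.1 ± 28.8 CPM (adjusted p = 0.000226), and Pkd1 and Pkd2 did not pass.

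Markers of several cell types moved with the RC/- group on total counts, where 25.5% of all genes were higher and 12.2% lower. All 12 proximal tubule markers were lower, with sums of 2549 to 5817 CPM in RC/- against 10298 to 11186 CPM in RC/+, and 6 of 8 markers of the thick ascending limb and distal tubule were lower and 1 higher, with 2213 to 4131 against 6807 to 7584 CPM. Of 10 collecting duct markers 7 were higher and 1 lower (1734 to 3845 against 1045 to 1366 CPM), as were all 10 macrophage markers (614 to 1107 against 286 to 305 CPM) and 7 of 10 fibroblast and myofibroblast markers (3439 to 5698 against 1604 to 2196 CPM). Of 6 endothelial markers 3 were lower (471 to 620.1 against 531 to 685 CPM), and of 10 proliferation markers 1 was higher (339.7 to 599.6 against 207 to 377 CPM).
Markers of multiciliated cells, which bear motile cilia and use the same transport genes, summed to 33.4 to 43.4 CPM in RC/- and 25.6 to 29.0 CPM in RC/+, with 4 of 15 higher and 2 lower. Foxj1, counted above among the transcription factors, is 1 of these 15 markers. It rose from 3.58 to 12.1 CPM, beside mean sums of 27.5 CPM in RC/+ and 38.9 CPM in RC/-, so the sums rest largely on this gene. Levels of the multiciliated cell markers were low in all groups, Hydin being at 0 in 2 of the 24 libraries and Tekt4 in 1. None of the other epithelial, immune or stromal markers was at 0 in any library. The part of cell composition in the ciliary gene results was not tested.

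The next comparisons asked whether ciliary gene expression differs in RC/- kidneys once the miR-17 site is removed. They use the same RC/- libraries as the comparison above, so both sets of values rest on shared samples. In RC/- D18 against RC/- kidneys 19 of the 51 genes changed on total counts, 4 higher and 15 lower, against a background of 41.2% of genes (14.3% higher, 26.9% lower) and 52.2% of the genes of like expression. With TMM 16 changed, 8 higher and 8 lower, against 39.2% of genes (19.7% higher, 19.5% lower), and 12 passed in the same direction on both scales. Values did not overlap for 11 genes (3 higher, 8 lower), as for 27.8% of all genes. The shift on the total count scale was -0.10 log2 in the median of all genes.
In RC/- D53 against RC/- kidneys 8 changed, 2 higher and 6 lower, against a background of 30.2% (11.3% higher, 18.9% lower) and 37.8% of the genes of like expression. With TMM 9 changed, 4 higher and 5 lower, against 28.1% (15% higher, 13.1% lower), and 7 passed on both scales. Values did not overlap for 6 genes (1 higher, 5 lower), as for 18.8% of all genes. The median of all genes stood at -0.081 log2.

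For B9d1 the RC/- D18 libraries held 19.6, 18.4, 16.9, 17.7 and 13.7 CPM and the RC/- D53 libraries 18.97, 20.2, 22.4, 20.7 and 24.4 CPM, and the edited noncystic groups 13.9, 15.5 and 16.6 CPM (D18) and 19.03, 17.6 and 21.5 CPM (D53). Both edited RC/- groups lay below all unedited RC/- libraries, by -0.75 ± 0.097 log2 (adjusted p = 1.29e-06) in D18 and -0.44 ± 0.097 (adjusted p = 0.00132) in D53.
Ift43 had 23.5, 21.9, 21.4, 22.1 and 20.2 CPM in RC/- D18 and 25.3, 20.7, 28.3, 24.3 and 28.9 CPM in RC/- D53, beside 18.5, 20.3 and 23.97 CPM in RC/+ D18 and 22.4, 24.6 and 24.4 CPM in RC/+ D53. It too was below every RC/- library in both lines, by -0.69 ± 0.083 log2 (adjusted p = 4.45e-07) and -0.47 ± 0.083 log2 (adjusted p = 0.000118).
Tmem237 held 18.2, 17.9, 19.4, 17.6 and 14.6 CPM in RC/- D18 and 19.9, 17.7, 20.4, 20.4 and 24.1 CPM in RC/- D53. It was lower in D18 by -0.55 ± 0.092 log2 without overlap (adjusted p = 3.32e-05), and in D53, where 1 library overlapped RC/-, by -0.33 ± 0.092 (adjusted p = 0.00837). Its edited noncystic libraries held 17.2, 15.1 and 19.7 CPM (D18) and 18.9, 21.6 and 19.2 CPM (D53).

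Bbs7 differed in the other direction, with 15.8, 18.6, 19.1, 19.3 and 16.7 CPM in RC/- D18 and 15.9, 16.8, 18.8, 18.1 and 14.1 CPM in RC/- D53. It was higher than in RC/- by 0.39 ± 0.088 log2 (adjusted p = 0.000905) in D18, without overlap, and by 0.29 ± 0.088 (adjusted p = 0.014) in D53, with overlap. The RC/+ D18 libraries held 22.5, 19.97 and 20.8 CPM and the RC/+ D53 libraries 16.5, 17.2 and 18.7 CPM.
Mkks had 19.2, 20.7, 20.1, 18.1 and 19.2 CPM in RC/- D18 and 19.8, 19.1, 18.5, 22.3 and 19.1 CPM in RC/- D53, all above the RC/- libraries. The difference was 0.31 ± 0.089 log2 (adjusted p = 0.00697) in D18 and 0.33 ± 0.089 (adjusted p = 0.00617) in D53. Bbs2 was higher in D18 by 0.22 ± 0.087 log2 (adjusted p = 0.0415). On total counts 3 of the 11 BBSome genes were thus higher in D18 and 2 in D53, and none was lower in either. Of all genes, 14.3% were higher in D18 and 11.3% in D53.
Inpp5e had 40.9, 46.5, 38.4, 45.3 and 41.2 CPM in RC/- D18, all above RC/-, and 39.9, 42.7, 39.9, 40.8 and 29.7 CPM in RC/- D53, where 1 library was low. It was higher by 0.32 ± 0.092 log2 (adjusted p = 0.00629) in D18. In D53 it stood at 0.18 ± 0.092 (adjusted p = 0.153) on total counts, and it passed as higher there with TMM.

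Kif3a had 32.1, 31.7, 29.7, 25.7 and 24.3 CPM in RC/- D18 and 31.1, 31.4, 30.97, 30.6 and 32.04 CPM in RC/- D53. It was lower than in RC/- in D18 by -0.35 ± 0.093 log2 (adjusted p = 0.00378), and the D53 value was -0.22 ± 0.093 (adjusted p = 0.0774), although no D53 library reached the RC/- range. Nphp4 had 5.96, 5.94, 5.18, 4.81 and 3.55 CPM in RC/- D18 and 4.25, 4.36, 4.40, 5.97 and 4.51 CPM in RC/- D53, overlapping RC/- in both, at -0.43 (adjusted p = 0.0362) and -0.53 log2 (adjusted p = 0.0147). The D18 call of Nphp4 was not kept with TMM (adjusted p = 0.114) or without libraries 20 to 22.
Tmem231 had 22.2, 24.9, 21.5, 20.7 and 19.1 CPM in RC/- D18 and 19.3, 19.1, 23.5, 22.6 and 18.3 CPM in RC/- D53, at -0.31 (adjusted p = 0.0102) and -0.39 log2 (adjusted p = 0.00267). All D53 libraries were below RC/-, and in D18 the call was not kept with TMM (adjusted p = 0.0719).
By role, on total counts, 5 IFT-B, 3 IFT-A, 2 motor and 4 transition zone genes and Arl13b were lower in D18. In D53 1 IFT-A gene, 4 transition zone genes and Arl13b were lower. Of all genes 26.9% were lower in D18 and 18.9% in D53. With TMM, 3 IFT-B, 1 IFT-A, 1 motor and 2 transition zone genes and Arl13b were lower in D18. In the same roles 1 IFT-A, 1 motor and 2 transition zone genes were then higher. In D53 with TMM, 1 IFT-A and 4 transition zone genes were lower, and 1 IFT-B gene and Inpp5e were higher. The Arl13b call was not kept there. Genes lower in D18 and not yet named include the IFT-B subunits Ift46 (-0.43 log2, adjusted p = 0.0054) and Ift22 (-0.35 log2, adjusted p = 7.47e-05), which also passed with TMM.

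**Figure D4:**
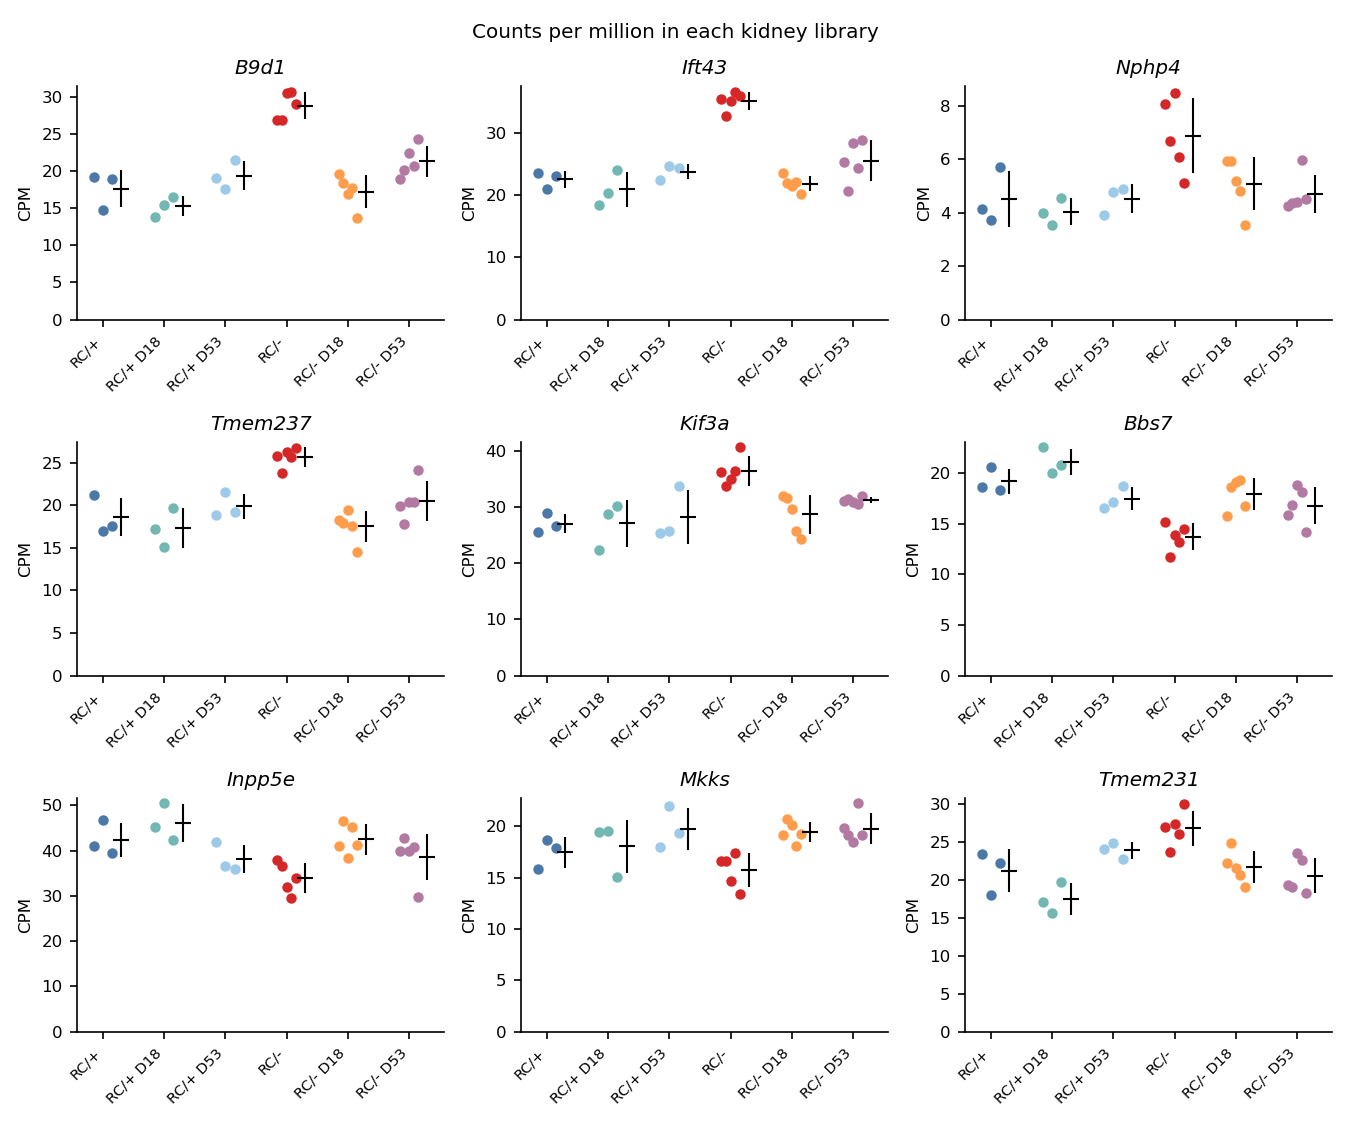
Level in CPM of 9 ciliary genes in each of the 24 libraries, by group (n = 3 for RC/+ groups, n = 5 for RC/- groups), with axes from 0; the black bar is the mean ± SD. The RC/- libraries stand above the RC/+ libraries for B9d1 and Ift43, up to 30.6 and 36.6 CPM, and below them for Bbs7, down to 11.7 CPM.

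The muscle transcripts of libraries 20 to 27 bear on these counts. With RC/- D18 libraries 20 to 22 left out, 10 of the 51 genes changed in RC/- D18 against RC/-, 4 higher and 6 lower, and all 10 were among the 19. The background at that setting was 27%, against 41.2% with all libraries. They were Ift22, Ift27, Ift43, Kif3b, Tmem237 and B9d1 lower and Bbs2, Bbs7, Mkks and Inpp5e higher. With libraries 20 to 27 as a covariate the same 10 changed in D18 (background 27.5%) and none did in D53 against RC/- by limma-trend, where 7 had an unadjusted p below 0.05 and the background was 7.96%. All RC/- D53 libraries are in that set, so this fit rests on the 2 RC/- D18 libraries outside it. Cell type markers also moved between RC/- and the edited RC/- groups on total counts. Of all genes, 14.3% were higher and 26.9% lower in D18, and 11.3% higher and 18.9% lower in D53. All 12 proximal tubule markers and 6 of 8 markers of the thick ascending limb and distal tubule were higher in both edited groups, with 1 of the latter lower in D18. All 10 macrophage markers were lower in both. Of 10 fibroblast and myofibroblast markers 8 were lower in D18 and 6 in D53, and of 10 collecting duct markers 7 were lower in D18 and 4 in D53, with 1 higher in each. Of 6 endothelial markers 3 were higher in D18 and 2 in D53, of 15 multiciliated cell markers 1 was higher and 4 lower in D18 and 2 higher and 4 lower in D53, and 9 of 10 proliferation markers were lower in D18 and none in D53. Their part in the result was not tested.

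Within each edited line, RC/- and RC/+ kidneys can be compared without the unedited libraries. None of the 51 genes changed in RC/- D18 against RC/+ D18 by limma-trend, edgeR or DESeq2 (7 at an unadjusted p below 0.05), where 0.266% of all genes did. None changed in RC/- D53 against RC/+ D53 by any of these tests (1 at an unadjusted p below 0.05), where 2.6% did. The 14 genes that changed in the unedited groups lay within 0.31 log2 of 0 in D18 and within 0.22 in D53. Of these 14, 12 kept the sign of the unedited groups in D18 and 10 in D53, while 2 and 4 had the opposite sign. Tmem231 held 17.1, 15.6 and 19.7 CPM in RC/+ D18, beside 19.1 to 24.9 CPM in RC/- D18. In D53 it went the opposite way, with 24.1, 24.9 and 22.7 CPM in RC/+ D53 beside 18.3 to 23.5 CPM in RC/- D53. The 14 were selected by their unedited difference, so smaller values here were not taken as a measure of editing.
For B9d1 the difference was 0.16 log2 in D18 (95% interval -0.07 to 0.40) and 0.14 in D53 (-0.10 to 0.37), and for Ift43 0.07 (-0.13 to 0.27) and 0.09 (-0.11 to 0.29). Bbs7 stood at -0.24 (-0.45 to -0.02) in D18 and -0.06 (-0.28 to 0.15) in D53. The Bbs7 interval in D18 still includes differences as large as some of those in the unedited groups.

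Whether the cystic difference depends on editing was tested by an interaction, which subtracts the difference of the unedited groups from that of an edited line. It passed for 3 of the 51 genes in D18 (8 at an unadjusted p below 0.05), against 17.1% of all genes, and for 3 in D53 (10 at an unadjusted p below 0.05), against 11.3%. In D18 these were Ift43 (-0.57 ± 0.14 log2, adjusted p = 0.00485), B9d1 (-0.55 ± 0.16, adjusted p = 0.0185) and Tmem237 (-0.45 ± 0.15, adjusted p = 0.0408).
In D53 they were Ift43 (-0.55 ± 0.14 log2, adjusted p = 0.0101), B9d1 (-0.58 ± 0.16, adjusted p = 0.0201) and Tmem231 (-0.56 ± 0.15, adjusted p = 0.0178). The Tmem231 value combines its rise in the unedited groups with the opposite difference within D53 given above. For the remaining 11 genes that changed in the unedited groups, a different response in D18 was not shown, and likewise for 11 in D53. Both interactions use the same unedited libraries, and without RC/+ library 5 Ift43 alone passed in each (backgrounds 13.2% in D18 and 7.28% in D53). It was also the 1 gene in D18 without RC/+ D18 library 9 (11.8%), whereas 5 passed without RC/+ D18 library 7 (18.8%), and 6 in D53 without RC/- D53 library 27 (13%). With libraries 20 to 27 as a covariate, Ift43 alone passed in D18, against 10.4% of all genes, and none did in D53 by limma-trend (2 at an unadjusted p below 0.05), against 1.79%.

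Editing alone left the 51 genes with no call in noncystic kidneys. None changed in RC/+ D18 against RC/+ by limma-trend, edgeR or DESeq2 (2 at an unadjusted p below 0.05), where 0.00443% of all genes did. Nor did any in RC/+ D53 against RC/+ by these tests (0 at an unadjusted p below 0.05), where the background was 0%. Between RC/- D53 and RC/- D18 none changed by limma-trend or edgeR (6 at an unadjusted p below 0.05), with a background of 0.266%, and 1, Ift27, did by DESeq2. Ift27 had 15.2, 15.6, 16.3, 15.3 and 13.2 CPM in RC/- D18 and 17.1, 17.2, 20.4, 18.5 and 21.04 CPM in RC/- D53, which did not overlap, at 0.31 ± 0.085 log2 (adjusted p = 0.124 by limma-trend).
Summed over the 51 genes, the noncystic kidneys gave 1249.8 ± 27.7 CPM without editing, 1239 ± 86.9 CPM with D18 and 1289 ± 51.2 CPM with D53 (mean ± SD of 3). The sums in RC/- kidneys were 1375 ± 59.3 CPM without editing, 1268 ± 70.3 CPM with D18 and 1306 ± 49.5 CPM with D53 (mean ± SD of 5). The ranges of all 6 groups fell between 1152 and 1447 CPM.

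**Figure D5:**
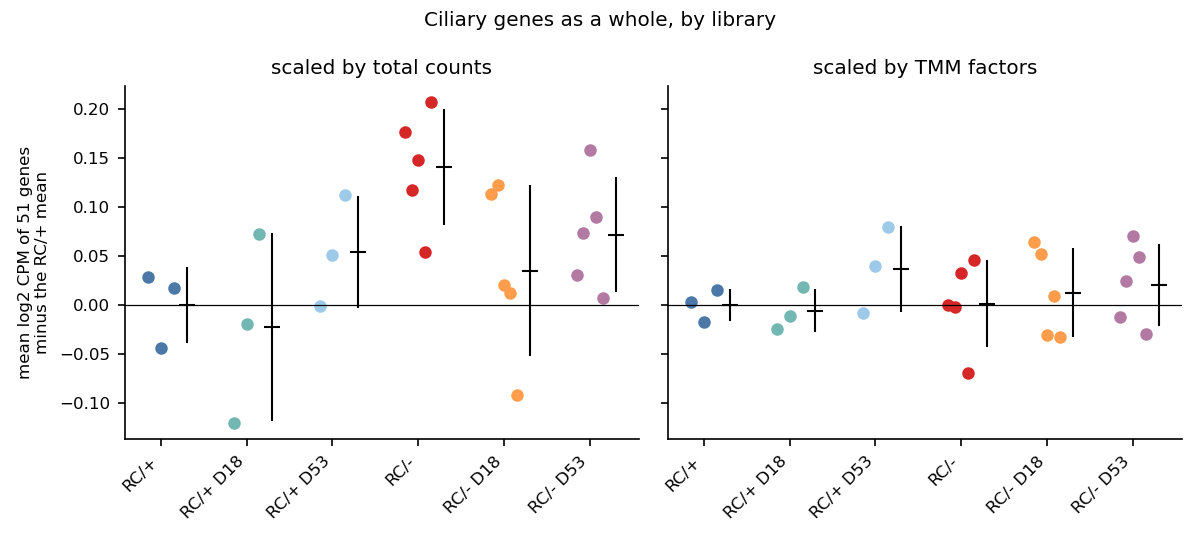
Mean log2 CPM of the 51 genes in each library minus the RC/+ mean, scaled by total counts (left) and with TMM factors (right), by group (n = 3 for RC/+ groups, n = 5 for RC/- groups); black bars are mean ± SD. The RC/- libraries average 0.14 on the left and 0.0012 on the right.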

How the data were processed

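Whole-kidney RNA of 24 mice was sequenced, 1 library each. Per the labels and the study's methods, the authors trimmed reads with Trim Galore 0.6.3, aligned them to GRCm38 with STAR 2.5.3a and deposited raw counts per gene, without normalization, for 54532 Ensembl genes. Which strand column was kept is not given in the sources used here. How antisense reads and reads in exon bases shared with another gene were handled is therefore not known. Here, counts were scaled to log2 CPM (prior count 2), genes with a mean of at least -3 were kept (22570), and limma-trend (limma 3.58.1, R 4.3.3) was fitted to 24 libraries with a mean for each of 6 groups and no covariate, as the study's methods name this test and limit. Tests were two-sided, with Benjamini-Hochberg adjustment within a comparison and a threshold of 0.05. There were 8 comparisons of groups and 2 interactions. RPKM used the summed exon length in GENCODE M21 (GRCm38), which matched all 51 genes.

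Alternatives were TMM factors (edgeR 4.0.16), DESeq2 1.42.0 size factors and test, edgeR's quasi-likelihood test, no expression filter, a prior count of 0.5, only the groups compared, covariates for sex (read from the counts) and for libraries 20 to 27, and leaving out each library. Unused columns numbered 0. A symbol was missing for 343 genes. The 39 pairs of libraries within groups differed beyond sampling noise (chi-square per degree of freedom 8.45 to 48.2), so none was counted as a copy. The procedure was tested on simulated data. Genes named with per-library values were the most and least changed of each role and those that changed between groups. The members, lists and motif were chosen with earlier results of these data known.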

Additional observations from a re-analysis of the deposited data

Results flagged for a closer look

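Dixon's ratio, the gap of a library to its nearest other divided by the range, was taken for 63 gene and group combinations with 5 libraries. In 3 of them it exceeded the 95% critical value of 0.71. Chance gives about 1 in 20, so these 3 may be no more than that. Kif3b was 52.3 CPM in RC/- D18 library 20, against 44.6 to 45.9 CPM in the other 4. Inpp5e was 29.7 CPM in RC/- D53 library 27, against 39.9 to 42.7 CPM. Nphp4 was 5.97 CPM in RC/- D53 library 26, against 4.25 to 4.51 CPM. All 3 are among the 8 libraries with skeletal muscle transcripts, whose part in these values was not tested.

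For 4 genes the interaction of the RC/- against RC/+ difference with editing passed in limma-trend, 3 in each edited line. With libraries 20 to 27 as a covariate, only Ift43 in D18 still passed among these. In D18 the interaction was -0.57 log2 for Ift43 (adjusted p = 0.00485), -0.55 for B9d1 (adjusted p = 0.0185) and -0.45 for Tmem237 (adjusted p = 0.0408). In D53 it was -0.55 for Ift43 (adjusted p = 0.0101), -0.56 for Tmem231 (adjusted p = 0.0178) and -0.58 for B9d1 (adjusted p = 0.0201). With TMM factors Tmem237 no longer passed in D18 (adjusted p = 0.0898), whereas Bbs7 passed in D53 (0.53 log2, adjusted p = 0.016).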

How the results depend on the processing

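No paired analysis was possible because the replicate numbers in the labels are not shared between groups. In RC/- against RC/+, 14 ciliary genes changed on total counts, 9 with TMM factors, 8 with DESeq2 size factors, 7 by edgeR and 9 by DESeq2, and 6 to 17 when a library was left out, lowest without RC/+ library 5, with 9 without RC/+ library 6. Of all genes, 37.6% changed on total counts, 34.3% with TMM factors, 31.2% without RC/+ library 5 and 31.8% without RC/+ library 6. Where neither this section nor the Results give such a share, a count does not separate ciliary genes from all genes. Of the 14 ciliary genes, 7 were kept with TMM and with DESeq2, and 6 with edgeR. B9d1, Ift43, Tmem237, Kif3a and Bbs7 passed in all 17 alternatives. In RC/- D18 against RC/- the count of 19 became 10 with libraries 20 to 27 as a covariate and 10 without libraries 20 to 22, a setting chosen after seeing the data, and 14 to 19 when 1 library was left out. In RC/- D53 against RC/- the count of 8 became 0 with that covariate and 7 to 11 when 1 library was left out. The D18 interaction (3) became 1 with the covariate and 1 to 5 when 1 library was left out, 1 without RC/+ library 5 or RC/+ D18 library 9 and 5 without RC/+ D18 library 7. The D53 interaction (3) became 0 with the covariate, 5 by DESeq2 and 1 to 6 when 1 library was left out, 1 without RC/+ library 5 and 6 without RC/- D53 library 27. RC/- D53 against RC/- D18 went from 0 to 1 (Ift27) by DESeq2, and the other comparisons at 0 stayed at 0 in all settings run.

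For genes near 0 the sign in RC/- against RC/+ followed the scale. With TMM factors, DESeq2 size factors, edgeR and DESeq2 in turn, the log2 fold change was -0.11, -0.10, -0.10 and -0.10 for Ift74, -0.041, -0.036, -0.029 and -0.025 for Dync2h1, -0.14, -0.13, -0.13 and -0.13 for Bbs10, -0.11, -0.10, -0.10 and -0.10 for Tmem67, and -0.010, -0.0050, -0.0093 and -0.0053 for Invs. Tmem67 was -0.0080 to 0.063 and Bbs10 -0.067 to 0.070 when 1 library was left out. Where that left 2 RC/+ libraries, the spread was still that of all groups. Depth and 3 RC/+ mice limit the least abundant genes most, such as Nphp4.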

Other observations

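Among the 15 markers of motile cilia, the 6 that passed the test in RC/- against RC/+ kidneys moved in both directions on both scales. Of all genes 37.6% passed on total counts and 34.3% with TMM. Dnah9 and Dnah11, heavy chains of the outer dynein arm of the axoneme, were lower, Dnah9 with 0.583 ± 0.339 CPM in RC/- against 1.77 ± 0.420 CPM in RC/+ (SD, n = 5 and 3, adjusted p = 0.012 by limma-trend), and Dnah11 with 2.00 ± 1.73 against 4.11 ± 0.262 CPM (adjusted p = 0.0102), where the RC/- libraries ranged from 0.715 to 4.05 CPM. Ccdc40, which sets the spacing of the axonemal repeat, was higher at 1.75 ± 0.342 CPM in RC/- against 0.769 ± 0.185 CPM in RC/+ (adjusted p = 0.00797). Tekt2, a tektin of the axoneme, was at 1.79 ± 0.353 against 0.781 ± 0.159 CPM (adjusted p = 0.0093), and Rsph1, of the radial spoke, at 3.23 ± 0.587 against 2.01 ± 0.419 CPM (adjusted p = 0.0111). Foxj1 was the remaining gene and was higher. The 9 others, which include Dnah5, Dnaic1 and Tekt1, did not pass.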
